A study of Sus scrofa with 63 samples.

Results

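The insulin-like growth factor (IGF) genes examined here were the ligands IGF1 and IGF2, the receptors IGF1R and IGF2R, and the binding proteins IGFBP1 to IGFBP6. Their probes were those whose gene name in the array files equalled 1 of these 10 symbols in any letter case. There were 38 such probes among the 60305 probes of the array, and 35 of them were bright enough to be tested among 40515. The measurements were made on RNA of the middle jejunum of 63 male pig fetuses, with 1 fetus per array. The fetuses were Large White (LW), Meishan (MS) or 1 of the reciprocal crosses, LWMS from an LW sire on an MS sow and MSLW from an MS sire on an LW sow. At day 90 of gestation there were 9 LW, 6 MS, 9 LWMS and 8 MSLW fetuses, and at day 110 there were 9, 7, 9 and 6. MS piglets survive birth better than LW piglets, and the ages were compared to follow the maturation of the gut before birth. Sows were inseminated with mixed semen of both breeds, so that a litter could hold pure and crossbred fetuses. Which sow carried which fetus did not enter the model, and litter mates were counted as independent. Where litter mates resemble each other, the p-values may be too small and the intervals too narrow.

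IGF1 and IGF2 are small secreted growth factors that signal mainly through IGF1R, a tyrosine kinase receptor of the cell surface. IGF2R, also the receptor for mannose-6-phosphate, takes IGF2 up for degradation and does not signal as IGF1R does. The IGFBPs bind the ligands outside the cell, carry them, and can hold them back from the receptor or release them. IGF2 is the main IGF of fetal growth in mammals and is expressed from the paternal allele in most fetal tissues, whereas IGF1 comes under the control of growth hormone around and after birth.

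Levels are given on a log2 scale, as the background-corrected signal over the array's own 75th percentile. Levels were compared between fetuses for the same probe only. Between 51.2 and 87.6% of the probes of an array (median 66.7%) were well above background. The labelled tissue was checked against markers: FABP1, LCT, ANPEP and EPCAM, all genes of the intestinal epithelium, were well above background on all 63 arrays, whereas sucrase-isomaltase (SI) was so on 0 to 9 arrays per group. The arrays that correlated least with the median of their group were those of fetuses 632 (MS, day 110, r = 0.911), 484 (LW, day 90, r = 0.931), 532 (MS, day 90, r = 0.948), 469 (LW, day 110, r = 0.951) and 851 (MSLW, day 110, r = 0.958). Each gene was represented by its brightest tested probe, which was well above background on all 63 arrays for every gene except IGFBP3 (61 arrays).

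The probe sequences decide how much of the evidence on a gene is independent. The probes were 60 bases long. Among the 8 IGF2 probes, A_72_P414438 and A_72_P544532 were the same sequence, and A_72_P537638 and A_72_P537644 overlapped by 38 bases, shown in capitals together with the whole of the duplicated probe. The other IGF2 probes shared fewer than 20 bases with each other. O12823 for IGFBP2 and O9305 for IGFBP6 overlapped no other probe of their gene by 20 bases and are shown because a call rests on them, whereas the other 3 IGFBP2 probes shared 51 to 54 bases in pairs. Each sequence shown has at least 1 reading frame without a stop codon. The strands are those of the array files.
IGF2 A_72_P537638: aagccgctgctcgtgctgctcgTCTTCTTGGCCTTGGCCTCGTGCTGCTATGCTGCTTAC
IGF2 A_72_P537644: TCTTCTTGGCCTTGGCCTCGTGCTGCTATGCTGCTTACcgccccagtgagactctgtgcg
IGF2 A_72_P414438: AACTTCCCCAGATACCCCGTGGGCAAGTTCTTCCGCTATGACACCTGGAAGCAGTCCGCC
IGF2 O9318: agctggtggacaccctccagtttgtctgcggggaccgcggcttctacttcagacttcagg
IGFBP2 O12823: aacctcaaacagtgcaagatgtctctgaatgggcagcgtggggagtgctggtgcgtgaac
IGFBP6 O9305: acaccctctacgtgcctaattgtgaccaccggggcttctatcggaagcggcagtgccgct

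Between day 90 and day 110, averaged over the genotypes, IGF2 and IGFBP2 were called lower on every one of their probes. IGFBP6 was lower on all 4 of its probes, of which 1 met the minimum difference for a call. No probe that the array files name for an IGF gene was called higher. Averaged over the 4 genotypes, 13 of the 35 tested probes fell (8 of IGF2, 4 of IGFBP2 and 1 of IGFBP6) by limma, under a rule that asks for both a log2 difference of 0.5 or more and an adjusted p no higher than 0.01. Over all 40515 probes tested, 7.71% were lower by this rule and 13.8% changed in either direction. The median log2 change was -0.37 over the 35 probes and -0.02 over all probes tested. In the test of any difference among the 8 groups, 16 of the 35 probes passed an adjusted p under 0.01, against 28.7% of all probes, and these were the 8 of IGF2, the 4 of IGFBP2 and the 4 of IGFBP6. Probes of 1 gene measure the same RNA and are not replicates of the age effect.

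The choice by gene name leaves out probes that the array files name only by an accession and that lists of the study assign to IGF1, IGF1R or IGF2. Which gene these probes measure was not checked here, and some of them moved in ways that the named probes did not. A_72_P012686, assigned to IGF1, rose with age by 5.27 (SE 0.35, limma adjusted p = 1.5e-18) and was called in all 4 genotypes, with medians of -1.57, -0.88, -0.96 and -0.53 at day 90 and 4.23, 5.37, 5.04 and 5.20 at day 110 in LW, MS, LWMS and MSLW (n = 5 in the last, since a spot was left out). A_72_P064846, assigned to IGF1R, rose by 1.18 in MS (adjusted p = 1.1e-04), was lower in MS than in LW at day 90 (-1.25, adjusted p = 8.1e-06) and was called for the sow (-0.49, adjusted p = 2.3e-04) and for a sow effect that differs with age (0.94, adjusted p = 0.0090). It was not called between the breeds at day 110 (-0.13, adjusted p = 0.74) or with age over the genotypes (0.42). Nor was its age change in MS minus that in LW called (1.12, adjusted p = 0.12). Of the pair assigned to IGF2, A_72_P113676 fell by 1.02 on the log2 scale over the genotypes (adjusted p = 9.4e-12) and A_72_P155326 by 1.1 (adjusted p = 7.0e-06), as the named IGF2 probes did. A_72_P113676 was also lower in MS than in LW at day 110 (-0.81, adjusted p = 0.0066) and with MS sires (-0.33, adjusted p = 0.046). Also outside the choice were probes named M6P/IGF2R (A_72_P101256 and A_72_P513762), IGF2AS (A_72_P100736) and INS-IGF2, the last of which was not tested. A_72_P513762 shares 60 bases with O10348, the brightest IGF2R probe. With age these tested probes differed by -0.06, -0.03 and 0.13, and none was called in any comparison. The statements on IGF1, IGF1R, IGF2 and IGF2R that follow hold for the probes named for these genes.

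**Figure D1:**
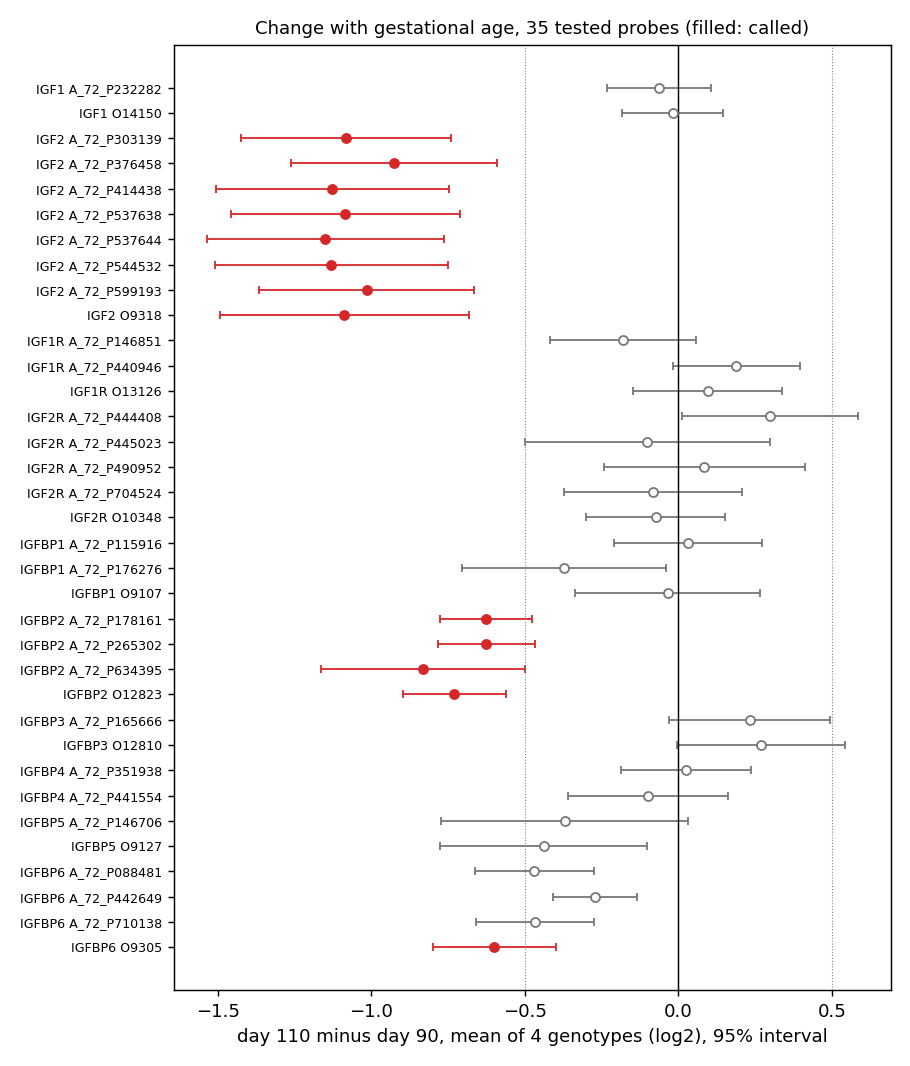
The difference between day 110 and day 90 (log2, mean of the 4 genotypes, with 95% interval) for each of the 35 tested probes; filled red points passed the test and dotted lines mark a log2 difference of 0.5 either way. All 8 IGF2 probes lie between -0.92 and -1.15 and all 4 IGFBP2 probes between -0.62 and -0.83, while the intervals of IGF1, IGF1R and IGFBP4 include 0.

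IGF2, the fetal growth factor, fell on all of the probes named for it. At day 90 its brightest probe (A_72_P376458) had its lowest, median and highest level at 5.19, 7.01 and 7.32 in LW, and at 5.76, 7.02 and 7.38 in MS. In the crosses of that age these values were 6.41, 7.11 and 7.40 in LWMS and 6.49, 6.82 and 7.13 in MSLW. The 4 medians at day 90 lay close together, and 1 LW and 2 MS fetuses stood well below the rest of their groups.
By day 110 the corresponding levels were 4.33, 6.09 and 6.98 in LW and 3.71, 6.16 and 6.35 in MS. They were 4.69, 6.18 and 6.84 in LWMS and 5.72, 6.52 and 6.96 in MSLW. All 9 LW, all 7 MS and all 9 LWMS fetuses at day 110 were below the day 90 median of their own genotype, and so were 5 of the 6 MSLW fetuses. The groups of the 2 ages still overlapped in every genotype: below all day 90 fetuses of their genotype were 2 of 9 LW, 3 of 7 MS, 8 of 9 LWMS and 2 of 6 MSLW fetuses. Ordered by mean, the groups ran from LWMS at day 90 (7.08 ± 0.30, SD, n = 9) through LW (6.83 ± 0.68, n = 9), MSLW (6.81 ± 0.19, n = 8) and MS (6.73 ± 0.74, n = 6) to MSLW at day 110 (6.40 ± 0.47, n = 6), LWMS (6.04 ± 0.59, n = 9), LW (5.89 ± 0.86, n = 9) and MS (5.42 ± 1.1, n = 7). Each neighbouring pair in this order differed by less than the larger SD of the pair.

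Averaged over the genotypes, IGF2 was 1.90-fold lower at day 110 (log2 difference -0.92, SE 0.17, 95% interval -1.26 to -0.59, limma adjusted p = 9.0e-06). Its 8 probes gave differences of -0.92 to -1.15, with adjusted p of 5.8e-07 to 1.5e-05, and pairs of them correlated across the 63 arrays with r of 0.944 to 0.999. With the slide as a block the difference was -0.94. Within the 8 slides, each with at least 3 arrays of either age, the mean was lower at day 110 in 8 of 8, by 0.24 to 1.44. Leaving out any 1 fetus gave differences of -0.98 to -0.85.

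**Figure D2:**
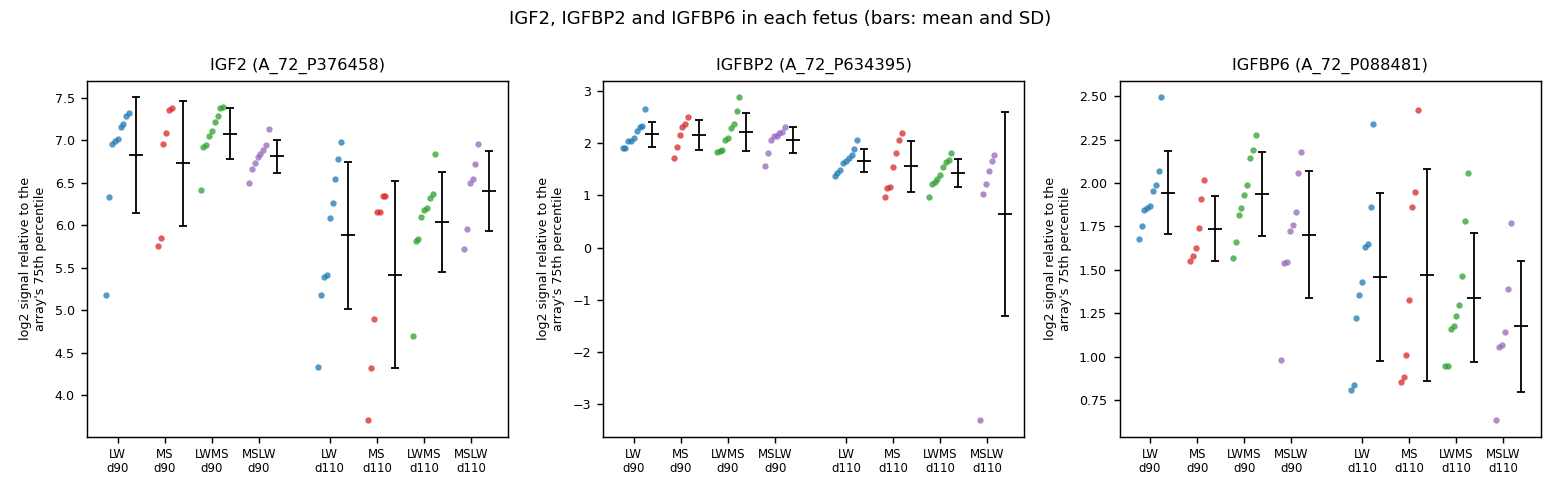
Level of IGF2, IGFBP2 and IGFBP6 in each of the 63 fetuses by genotype and day (log2 scale, over the array's own 75th percentile; points are fetuses, bars the mean and SD of the group). IGF2 spread from 3.71 to 6.98 at day 110, and IGFBP2 showed 1 MSLW fetus at -3.32 while the others of its group were at 1.02 to 1.78.

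The size of the IGF2 change within each genotype was measured less precisely. On the brightest probe it was -0.94 in LW (adjusted p = 0.037), -1.31 in MS (adjusted p = 0.016), -1.04 in LWMS (adjusted p = 0.012) and -0.41 in MSLW (95% interval -1.12 to 0.30, adjusted p = 0.51), none of which met the threshold of 0.01. Over the 8 probes, 6 were called in LWMS (-1.04 to -1.29), 1 in MS (-1.31 to -1.58), 0 in LW (-0.94 to -1.21, adjusted p of 0.011 to 0.048) and 0 in MSLW (-0.41 to -0.56). These counts rested on a few fetuses. Without LW fetuses 484 and 469, both among the arrays least like their group, 7 of the 8 IGF2 probes were called in LW, 8 in MS, 8 in LWMS and 0 in MSLW. Without all 5 arrays least like their group, 8 were called in LW, 2 in MS, 8 in LWMS and 0 in MSLW.
Whether the smaller change in MSLW differed from the other genotypes was not tested. The comparisons run pool MSLW with LW (by sow) or with MS (by sire), or leave it out (MS against LW). For IGF2 the age change differed by -0.50 between MS and LW sows (95% interval -1.17 to 0.17, adjusted p = 0.65), between MS and LW sires it differed by 0.13 (-0.54 to 0.80, adjusted p = 1.0), and the age change in MS minus that in LW was -0.37 (-1.33 to 0.59, adjusted p = 1.0).
Counted over all 10 genes, 2 of the 35 probes fell in LW, where 2.53% of all probes tested were lower, and 2 fell in MS, where the share was 1.51%. The number was 10 in LWMS, against 5.69% of all probes, and 2 in MSLW, against 2.97%. In LW both probes were of IGFBP2, in MS 1 was of IGF2 and 1 of IGFBP2, in LWMS 6 were of IGF2, 3 of IGFBP2 and 1 of IGFBP6, and in MSLW both were of IGFBP2.

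**Figure D3:**
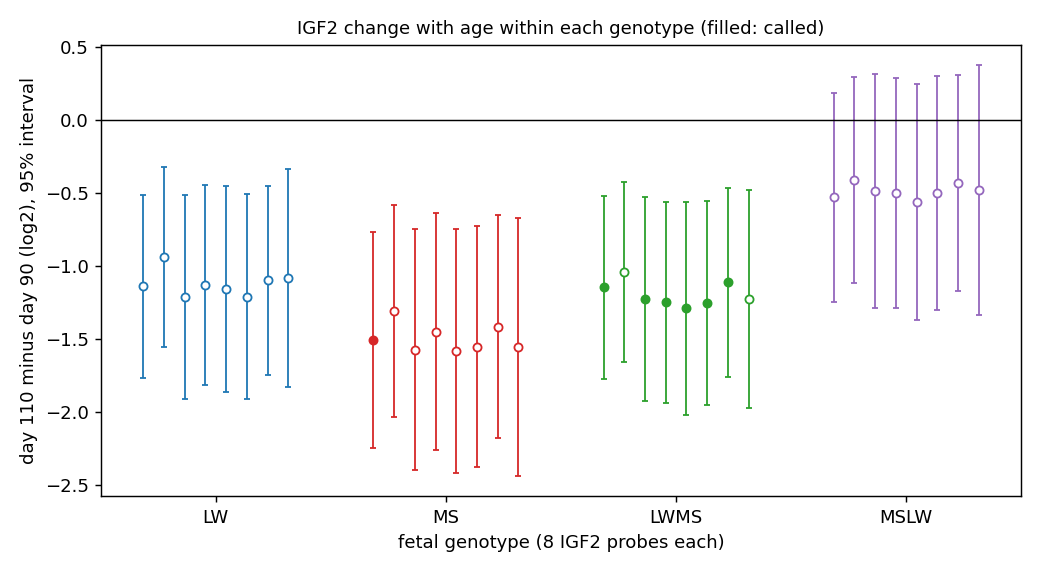
Change of each of the 8 IGF2 probes between day 90 and day 110 within each genotype (log2, with 95% interval; filled points passed the test). The probes run from -0.94 to -1.21 in LW, -1.31 to -1.58 in MS, -1.04 to -1.29 in LWMS and -0.41 to -0.56 in MSLW, where all intervals include 0.

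In whole jejunum, fewer cells of a type and less RNA per cell cannot be told apart, and several cell type markers moved between the ages. The shares over all probes tested were 6.07% higher and 7.71% lower with age. Against these shares, 1 call in a list of 5 to 7 genes does not set that list apart. Of 8 tested genes of the intestinal epithelium, 4 rose, FABP1 by 2.55, ALPI by 2.47, LCT by 1.37 and SI, whose size is not given because it was above background on 0 of 8 MSLW arrays at day 90, and ANPEP fell by 0.59 on the log2 scale. The mean level of that list ranged from 2.0 to 3.32 over the day 90 fetuses and from 0.34 to 4.53 over those of day 110, where only fetuses 632 (0.34) and 575 (1.52) were under 2. Of 10 fibroblast and mesenchyme genes, 3 fell, COL1A1 by 0.81, COL1A2 by 0.74 and THY1 by 0.68, and none rose. Of 7 smooth muscle genes, 1 fell (ACTA2, by 0.55), and the mean of the list ranged from 3.60 to 4.64 at day 90 and from 3.12 to 4.56 at day 110. Of 3 red blood cell genes, 2 fell, AHSP by 1.80 and HBB by 1.68, and of 6 genes of neurons and glia, 2 fell, UCHL1 by 0.64 and ELAVL4 by 0.63. The list of red blood cell genes had group medians of 1.51 to 2.73 at day 90 and 0.32 to 1.48 at day 110. Of the other lists, 1 of 6 endothelial genes fell (CLDN5), 1 of 6 proliferation genes fell (CCNB1), 1 of 5 leukocyte genes rose (CD163), and 0 of 2 genes of the exocrine pancreas were called. The part of these lists in the changes of the IGF genes was not tested.

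IGF1, the other ligand, gave no call with age on the probes named for it, unlike A_72_P012686 above. Its brightest probe (O14150) had group means from -1.15 ± 0.29 (SD, n = 9) in LW at day 90 to -0.78 ± 0.21 (n = 6) in MS at day 90, and individual fetuses ranged from -1.84 to -0.37. These levels went with the slide: they were -1.84 to -0.79 on slide 1 and -0.84 to -0.37 on slide 3. Both slides held fetuses of both ages, and the part of the slide in this spread was not tested. The groups overlapped throughout, with day 110 medians of -1.10, -0.65, -1.04 and -1.08 in LW, MS, LWMS and MSLW. The difference between the ages was -0.02 (95% interval -0.18 to 0.14, adjusted p = 0.89), and -0.06 on the second tested probe (A_72_P232282, -0.23 to 0.11, adjusted p = 0.59). The pair correlated at r = 0.22 across the arrays. On A_72_P232282 the sow's breed acted differently at the 2 ages by -0.67 (95% interval -1.01 to -0.33), which missed the threshold of 0.05 at an adjusted p of 0.051. The remaining IGF1 probes were well above background on 24 and 10 of the 63 arrays and were not tested.

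Neither receptor gave a call with age, averaged over the genotypes, on the probes named for it. IGF1R, the signalling receptor, had day 90 means on its brightest probe (O13126) of 1.17 ± 0.52 (SD, n = 9) in LW, 1.34 ± 0.34 (n = 6) in MS, 1.18 ± 0.36 (n = 9) in LWMS and 1.61 ± 0.37 (n = 8) in MSLW. At day 110 they were 1.36 ± 0.33 (n = 9), 1.55 ± 0.86 (n = 7), 1.49 ± 0.43 (n = 9) and 1.28 ± 0.47 (n = 6). The widest group was MS at day 110, where fetus 632 was at 3.02 and the other fetuses were at 2.10 or below. The age difference was 0.10 (95% interval -0.15 to 0.34, adjusted p = 0.57), and the other IGF1R probes gave 0.19 and -0.18 (adjusted p = 0.14 and 0.24).
IGF2R, the clearance receptor for IGF2, was measured on its brightest probe (O10348) at 3.43 ± 0.47 (n = 9) in LW, 3.41 ± 0.51 (n = 6) in MS, 3.62 ± 0.10 (n = 9) in LWMS and 3.71 ± 0.39 (n = 8) in MSLW at day 90. The day 110 means were 3.21 ± 0.60 (n = 9), 3.39 ± 0.48 (n = 7), 3.83 ± 0.40 (n = 9) and 3.45 ± 0.37 (n = 5, since the spot of MSLW fetus 688 was an outlier and left out). The LWMS group was the tightest at day 90, and 7 of its 9 fetuses at day 110 were above all of its fetuses at day 90. The difference between the ages was -0.07 (95% interval -0.30 to 0.15, adjusted p = 0.65), and the 5 probes ranged from -0.10 to 0.30. The receptor probes did not track each other as those of IGF2 did, with r of 0.08 to 0.60 for IGF1R and -0.18 to 0.89 for IGF2R.

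Among the binding proteins, IGFBP2, an abundant binding protein of the fetus, fell in the same direction as IGF2. On its brightest probe (A_72_P634395) the lowest, median and highest levels at day 90 were 1.90, 2.11 and 2.67 in LW, 1.73, 2.24 and 2.50 in MS, 1.84, 2.10 and 2.89 in LWMS and 1.56, 2.14 and 2.32 in MSLW. At day 110 they were 1.37, 1.65 and 2.06 in LW, 0.97, 1.54 and 2.21 in MS, 0.96, 1.39 and 1.82 in LWMS and -3.32, 1.34 and 1.78 in MSLW. In LWMS the ages did not overlap on this probe, by the narrow margin of 1.82 against 1.84. On each other IGFBP2 probe they did, with 7 or 8 of 9 LWMS fetuses at day 110 below all those of day 90. On the brightest probe 8 of 9 LW, 4 of 7 MS and 4 of 6 MSLW fetuses at day 110 were below all day 90 fetuses of their genotype.
Over the genotypes IGFBP2 was 1.78-fold lower at day 110 on this probe (log2 difference -0.83, SE 0.17, adjusted p = 4.5e-05). The non-overlapping probe O12823 gave -0.73 (SE 0.08, 95% interval -0.90 to -0.56, adjusted p = 1.8e-10), and the remaining IGFBP2 probes -0.63 and -0.62. Within the 8 slides O12823 was lower at day 110 in 8 of 8, by 0.36 to 1.14.
The value of -3.32 belonged to MSLW fetus 688. On the other 3 IGFBP2 probes this fetus was at 0.95, 0.60 and -0.68, and its level on A_72_P634395 made the MSLW change of -1.42 (adjusted p = 0.0038). Without this fetus the MSLW change was -0.63 (adjusted p = 0.016), the number of MSLW probes called went from 2 to 0, and the change over the genotypes was -0.63 (adjusted p = 5.3e-09). On O12823 the changes were -0.62 in LW (adjusted p = 0.0045), -0.76 in MS (adjusted p = 0.0045), -0.92 in LWMS (adjusted p = 9.1e-06) and -0.62 in MSLW (adjusted p = 0.013).

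IGFBP6, which binds IGF2 in preference to IGF1, was also lower at day 110. Its brightest probe (A_72_P088481) had day 90 medians of 1.87, 1.68, 1.93 and 1.74 and day 110 medians of 1.43, 1.33, 1.23 and 1.1 in LW, MS, LWMS and MSLW. Fetuses of both ages overlapped in each genotype, with 7 of 9 LW, 4 of 7 MS, 7 of 9 LWMS and 1 of 6 MSLW fetuses at day 110 below all those of day 90. This probe differed by -0.47 (SE 0.10, adjusted p = 8.5e-05), which was under the minimum difference of 0.5, and O9305 fell by 0.60 on the log2 scale (SE 0.10, adjusted p = 1.8e-06). All 4 probes were lower, by 0.27 to 0.60, with adjusted p of at most 0.0011. Within LWMS, O9305 fell by 0.87 on the log2 scale (adjusted p = 3.5e-04).
IGFBP5, whose gene neighbours that of IGFBP2, had means on O9127 of 1.30 ± 0.58 (SD, n = 9), 1.27 ± 0.40 (n = 6), 1.49 ± 0.29 (n = 9) and 1.73 ± 0.54 (n = 8) at day 90 and 1.36 ± 0.81 (n = 9), 1.11 ± 1.20 (n = 7), 0.85 ± 0.65 (n = 9) and 0.72 ± 0.51 (n = 6) at day 110, in the order LW, MS, LWMS and MSLW. The difference was -0.44 (95% interval -0.77 to -0.10, adjusted p = 0.032) and was not called. MS fetus 632 was again the highest of all, at 3.40, and without it the difference over the genotypes was -0.53 (adjusted p = 0.0029), which met both thresholds.

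**Figure D4:**
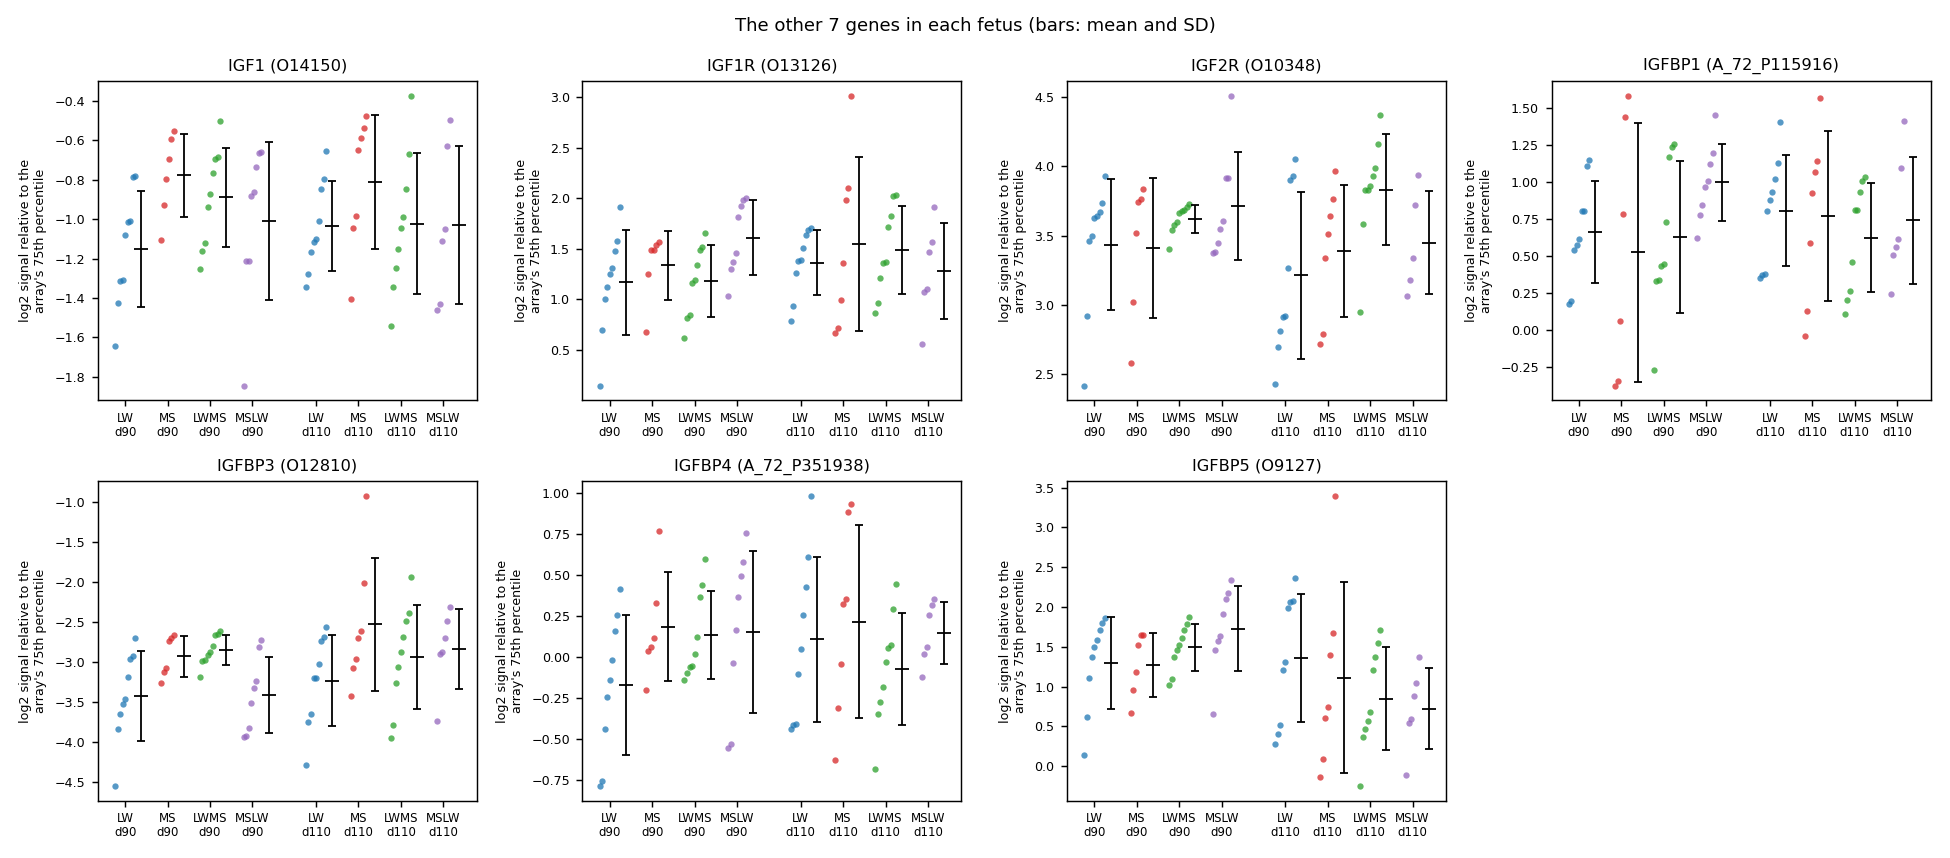
Level of IGF1, IGF1R, IGF2R, IGFBP1, IGFBP3, IGFBP4 and IGFBP5 in each fetus by genotype and day (log2 scale, over the array's own 75th percentile; points are fetuses, bars the mean and SD of the group). The ages overlap in every genotype, and MS fetus 632 at day 110 is the highest point for IGF1R (3.02) and IGFBP5 (3.40).

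The other binding proteins gave no call with age. IGFBP4, an inhibitory binding protein, had group means between -0.17 ± 0.43 (SD, n = 9) in LW at day 90 and 0.22 ± 0.59 (n = 7) in MS at day 110 and an age difference of 0.02 (95% interval -0.19 to 0.24, adjusted p = 0.88). IGFBP3, the main carrier of IGFs in the blood after birth, was dim and ranged from -4.55 to -0.93 over the fetuses, with an age difference of 0.27 (95% interval -0.00 to 0.54, adjusted p = 0.11).
IGFBP1, known as a binding protein that responds to insulin and nutrition in the liver, differed by 0.03 (95% interval -0.21 to 0.27, adjusted p = 0.87) on its brightest probe. Its 3 probes did not agree: they correlated with each other at r of -0.29 to -0.02 across the arrays. The array files place the brightest probe at position 5094 of its transcript and A_72_P176276 at 1280. Values for IGFBP1 are therefore given by probe and not as a level of the gene.

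None of the 35 named probes was called between the pure breeds, whereas A_72_P064846 and A_72_P113676 above were. Between MS and LW, 0 of 35 probes were called by limma at day 90, where 3.58% of all probes tested were called, and 0 at day 110, where the share was 4.99%. At an unadjusted p under 0.05 there were 3 probes at either age, and a linear model without moderation of the variance also called 0 at both. For IGF2 the breeds differed by -0.10 (95% interval -0.79 to 0.60) at day 90 and -0.47 (-1.13 to 0.20) at day 110, intervals that include differences as large as some of the age changes. IGFBP3 (O12810) was higher in MS by 0.50 at day 90 (adjusted p = 0.37) and by 0.70 at day 110 (adjusted p = 0.088). At day 110, IGFBP1 gave -0.99 on A_72_P176276 (adjusted p = 0.038) and 0.79 on O9107 (adjusted p = 0.078), opposite directions for 1 gene name. The test of a different age change in the breeds called 0 of 35 probes, with 1 at an unadjusted p under 0.05, against 0.0173% of all probes.

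The reciprocal crosses separate the breed of the sow (31 fetuses of MS sows and 32 of LW sows) from that of the sire (27 fetuses of MS sires and 36 of LW sires). By the breed of the sow 1 of 35 probes was called at an adjusted p under 0.05, against 16.0% of all probes tested. It was IGFBP3 on O12810, higher with MS sows by 0.41 (SE 0.14, 95% interval 0.14 to 0.69, adjusted p = 0.030). Its means were -3.42 ± 0.57 (SD, n = 9) in LW and -3.41 ± 0.48 (n = 8) in MSLW at day 90, both from LW sows, and -2.93 ± 0.26 (n = 6) in MS and -2.85 ± 0.19 (n = 9) in LWMS, both from MS sows. At day 110 they were -3.23 ± 0.57 (n = 9) in LW and -2.83 ± 0.50 (n = 6) in MSLW, against -2.53 ± 0.83 (n = 7) in MS and -2.94 ± 0.65 (n = 9) in LWMS, so that the order by sow seen at day 90 did not hold for the crosses at day 110. Within the 8 slides the difference was 0.14 to 0.80, higher with MS sows in 8 of 8, with as few as 2 arrays on a side. The other IGFBP3 probe, which shares 30 bases with it, gave 0.12 (95% interval -0.14 to 0.38, adjusted p = 0.55), and the call was lost without fetus 407 or without fetus 481 (adjusted p up to 0.054).
By the breed of the sire 1 of 35 probes was called, against 6.95% of all probes. It was IGFBP1 on A_72_P176276, with a log2 difference of -0.53 between MS and LW sires (95% interval -0.86 to -0.19, adjusted p = 0.039), while the other IGFBP1 probes gave 0.08 and 0.30 (adjusted p = 0.80 and 0.28). This probe was well above background on 47 of the 63 arrays, and the call was lost when any 1 of 19 fetuses was left out. Within the 8 slides its difference ran from -1.23 to 0.25, lower with MS sires in 6 and higher in 2, with as few as 2 arrays on a side.
For the ligand and receptor pair known for imprinting in mammals, no parental difference was called on the named probes, whereas A_72_P113676 was called for the sire. IGF2 differed by -0.16 with the sow (95% interval -0.50 to 0.17, and 0.089 with array weights) and -0.12 with the sire (-0.45 to 0.22), and IGF2R by 0.11 (-0.11 to 0.34) and -0.03 (-0.26 to 0.19). Differences of up to about these bounds cannot be told from 0 with these numbers of fetuses. The intervals count litter mates as independent and may be too narrow, for the sow in particular, whose breed is common to a whole litter. The sow's breed acted differently at the 2 ages for 0 of 35 probes (3 at an unadjusted p under 0.05), against 0.388% of all probes, where the linear model without moderation called 1, and the sire's breed for 0 of 35 (0 at an unadjusted p under 0.05), against 0% of all probes.

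**Figure D5:**
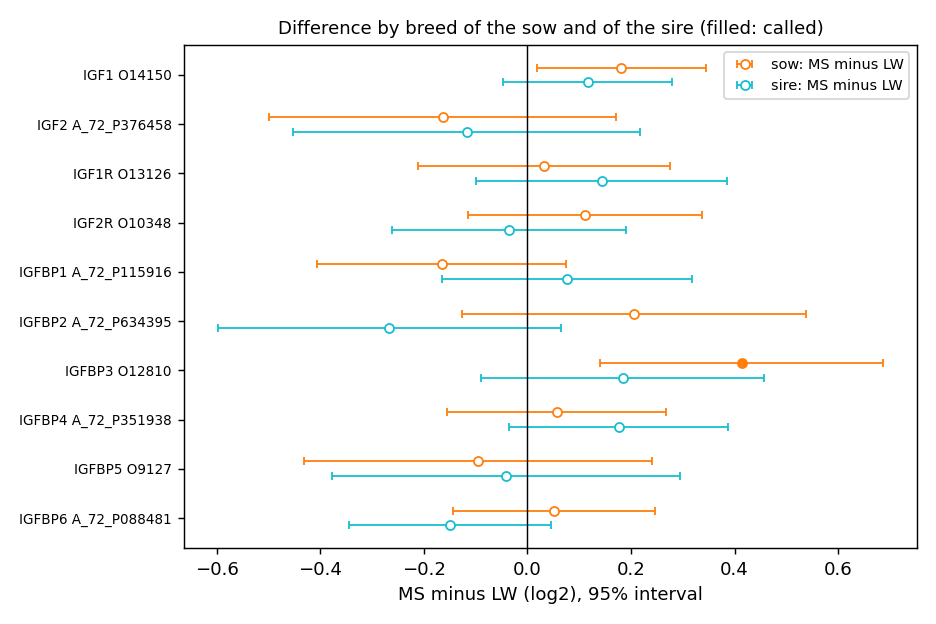
Difference by the breed of the sow and by the breed of the sire (MS minus LW, log2, with 95% interval) for the brightest probe of each of the 10 genes; the filled point passed the test. Only IGFBP3 with the sow (0.41) is filled, and both intervals of IGF2 and of IGF2R include 0.

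The genes around the IGF members were taken from lists chosen with earlier results of these data known. Over all probes tested, 6.07% were called higher with age and 7.71% lower. In the growth hormone axis, 2 of 6 tested genes rose with age: GHR, the growth hormone receptor, by 0.91 (adjusted p = 1.6e-11, higher on all 6 of its probes), and SOCS2, a feedback inhibitor of that receptor's signal, by 0.57 (adjusted p = 5.0e-11). Of 8 genes close to the receptor, 2 fell, the adapter IRS1 by 0.84 (adjusted p = 1.9e-09) and GRB14, which binds insulin-type receptors and damps their signal, by 1.21 on the log2 scale (adjusted p = 1.6e-15). INSR, the insulin receptor, differed by -0.01 (adjusted p = 0.95). Of 14 genes of the PI3K and AKT branch, 0 met both thresholds, although 4 (GSK3B, AKT1, FOXO1 and PIK3R2) passed on the adjusted p alone, with differences of -0.27 to 0.38.
Among 7 partners and proteases of the binding proteins, IGFALS, which stabilises complexes of IGF with IGFBP3 in blood, rose by 0.83 (adjusted p = 8.8e-05) and STC1, an inhibitor of a protease that cuts IGFBPs, by 0.69 (adjusted p = 8.5e-05). IGFALS was dim and well above background on 4 to 8 arrays per group. The medians of the lists were 0.24 for the growth hormone axis, 0.06 close to the receptor, -0.06 for the PI3K and AKT branch, 0.18 for the RAS and MAPK branch and 0.23 for partners and proteases, against -0.02 over all probes.

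In the list of IGF2 locus genes, 2 of 5 were called with age. H19, a non-coding RNA from the same imprinted domain as IGF2 but expressed from the maternal allele, fell by 2.0 on the log2 scale (SE 0.33, adjusted p = 1.6e-06). Its means were between -0.73 and -0.46 in the 4 groups of day 90, and -3.33 ± 2.37 (SD, n = 9) in LW, -3.60 ± 2.03 (n = 7) in MS, -2.60 ± 1.63 (n = 9) in LWMS and -0.94 ± 0.81 (n = 6) in MSLW at day 110. It was then well above background on 7 of 9 LW, 5 of 7 MS, 8 of 9 LWMS and 6 of 6 MSLW arrays. INS, the insulin gene next to IGF2 in the pig gene table, was called higher. At day 90 it was well above background on 5 of 9 LW and 3 of 6 MS arrays. In the crosses of that age it was so on 3 of 9 LWMS and 0 of 8 MSLW arrays, and the size of its difference is not given. No day 90 group reached the share of arrays that the filter asks for, so INS entered the test through day 110 groups only. Such an entry favours a rise, and no conclusion is drawn from the call of INS. The other tested genes of that list did not pass: IGF2BP3, which binds the IGF2 message, differed by -0.28 (adjusted p = 2.3e-04), IGF2BP2 by -0.17 and PLAGL1 by -0.05.

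Calls by parental breed were also made among the signalling genes, where the share over all probes was 16.0% for the sow and 6.95% for the sire. With MS sows, NRAS was higher by 1.05 (adjusted p = 1.2e-07) and MAPK3 by 0.56 (adjusted p = 3.3e-06), 2 of 6 genes of the RAS and MAPK branch, and STC2, a relative of STC1, was higher by 0.45 (adjusted p = 0.0063). In the PI3K and AKT branch FOXO1 and PIK3R2 had log2 differences of -0.40 and -0.28. Close to the receptor SHC1 was higher by 0.22, and GRB14 (-0.33) and GRB10 (-0.21) were lower. With MS sires these 4 genes of both branches were called too, with NRAS at 0.56, MAPK3 at 0.37, FOXO1 at -0.41 and PIK3R2 at -0.30, and SHC1 was at 0.27. For FOXO1, 2 of 4 probes were called for the sow and 1 of 4 for the sire, and for PIK3R2 1 of 2 for both. For SHC1, 3 of 5 probes were called for the sow and 2 of 5 for the sire. For GRB10, 1 of 6 was called for the sow, where its probes ranged from -0.21 to 0.16. The calls of these genes hold for the brightest probe and not for the whole gene.

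The genes most like each member across fetuses were found by Pearson's r over the arrays, with the age difference, the slide and the array in common to all points. For IGF2 they were ADAT3 (r = 0.945, rho = 0.948), PRDM1 (r = 0.834, rho = 0.727) and H19 (r = 0.821, rho = 0.664) over 63 arrays, and without the 2 fetuses farthest from the IGF2 median these were 0.940, 0.802 and 0.768. The ADAT3 probe shared at most 9 bases in a row with any IGF2 probe. Its r lay within the range for pairs of IGF2 probes (0.944 to 0.999), most of which also shared fewer than 20 bases. The lack of overlap therefore cannot tell whether the ADAT3 probe measures another RNA, which was not checked. IGF2R was most like DST (r = 0.856, 62 arrays), IGF1R like EP400 (r = 0.877), IGF1 like HAL (r = 0.817), IGFBP4 like ETS1 (r = 0.869) and IGFBP5 like NCS1 (r = 0.925). IGFBP6 was most like DCN (r = 0.797), a fibroblast gene that differed by -0.50 with age on its brightest probe. The brightest IGFBP1 probe went with ERCC1 (r = 0.969), SLC29A1 (r = 0.967) and CYP24A1 (r = 0.965), closer than with any IGFBP1 probe. This IGFBP1 probe also went with the slide: -0.37 to 0.85 on slides 1 and 2, 0.81 to 1.58 on slides 3 and 4. Each of these slides held fetuses of both ages. The part of the slide in the likeness of any gene to a member was not tested. IGFBP3 had no close gene (RFTN1, r = 0.597), and the likeness of IGFBP2 to DGUOK (r = 0.870) was 0.543 without the 2 farthest fetuses.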

How the data were processed

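Gene expression was measured on 63 one-colour Agilent pig arrays spread over 8 slides, each slide holding several groups. The authors deposited scanner files of Agilent Feature Extraction 10.10.1.1 with a processed signal intensity per spot, background-corrected by that software, and a table of processed log2 values for 39446 probes, made after quality control and a normalization whose method the paper does not specify. From the deposited intensity, log2 values were taken, outlier spots were left out (2775 tested probes lacked at least 1 value), the 75th percentile of each array was subtracted and spots of a probe were averaged. Of the 61625 spots, 1319 were control spots and 0 were saturated. Probes entered the test if 75% or more of the arrays in any 1 group had them well above background. A model with 8 group means was fitted by limma 3.58.1 in R 4.3.3 over all 40515 probes, with Benjamini-Hochberg adjustment over all of them. Age and breed calls needed an adjusted p of at most 0.01 and an absolute log2 difference of at least 0.5, the breed by age interaction an adjusted p of at most 0.01, and sow and sire calls an adjusted p under 0.05. The study fitted the sow as a random effect, which was not done here. The scripts were tested on simulated data. The number of arrays limits the precision.

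The named genes were the 10 members, each by its brightest tested probe, and genes of pathway and marker lists. The members and lists were chosen with earlier results of these data known. Gene names were those of the array files, and neighbouring genes were read from a RefSeq table without coordinates. The labels list the dye as Cy3 for 60 arrays and otherwise for 3, and all were treated alike. Alternatives were the authors' processed values, normexp, quantile and median scaling, 2 filters on dim probes, array weights, an ordinary linear model, a block for the slide, 61 fetuses (without LW fetuses 484 and 469), purebred fetuses alone, the median over a gene's probes and no minimum fold. Some genes of the lists and 1 probe sequence are not reported here.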

Additional observations from a re-analysis of the deposited data

Results flagged for a closer look

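Of 80 sets of values (10 genes in 8 groups), 7 held a fetus far from the others of its group, where chance gives about 1 in 20 sets. IGF2 (A_72_P376458) was at 4.69 in LWMS fetus 609 at day 110, at 6.41 in LWMS fetus 533 at day 90 and at 5.19 in LW fetus 484 at day 90, all 3 below their group. IGFBP2 (A_72_P634395) was at -3.32 in MSLW fetus 688 at day 110. IGF1 (O14150) was at -1.84 in MSLW fetus 450 and IGF1R (O13126) at 0.67 in MS fetus 827, both the lowest of their group at day 90. Fetus 450 was on slide 1, where levels of this IGF1 probe were lower than on slide 3. IGFBP6 (A_72_P088481) was at 2.49 in LW fetus 894 at day 90, the highest of its group.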

How the results depend on the processing

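The number of IGF probes changed with age over the genotypes (13) and that of probes differing among the 8 groups (16) stayed within 1.5 times under every alternative run, with 13 to 16 and 14 to 17 when 1 fetus was left out. The counts within a genotype did not, and the causes were not tested. In LW (2) the count was 4 with normexp and with probes bright on all arrays, 0 with median centring and with purebred fetuses alone, 1 without a filter and with the slide as a block, 9 with array weights, 8 with 61 fetuses, 10 without the 5 arrays least like their group, and 0 (without fetus 462) to 10 (without fetus 484) leaving out 1 fetus. In MS (2) it was 6 with the authors' values, 0 with median centring and with purebred fetuses alone, 5 with probes bright on all arrays, 1 with the slide block, 12 with array weights, 9 with 61 fetuses, and 0 (without fetus 766 or 827) to 9. In LWMS (10) it was 4 with median centring, 5 without a filter, 16 with array weights, and 4 to 14. In MSLW (2) it was 4 with quantile normalization, 1 with median centring, without a filter and with the slide block, 8 with array weights, 0 without fetus 688, and 0 to 5. The count at day 110 between breeds (0) was 1 with array weights, and 0 to 1 leaving out a fetus. The sow count (1) was 2 with median centring and with the slide block, 4 with array weights, 0 with probes bright on all arrays and without the 5 arrays, and 0 to 1. The sire count (1) was 0 with the authors' values, normexp, quantile normalization, no filter and probes bright on all arrays, 2 with array weights, and 0 to 1. The count of sow effects that differ with age (0) was 1 with normexp, the slide block, the ordinary linear model, 61 fetuses and without fetus 688, and 0 to 1. Directions turned for values near 0: the age difference of IGFBP1 was -0.14 with array weights, -0.021 without the 5 arrays and -0.014 to 0.084 leaving out a fetus, that of IGFBP4 -0.020 with array weights, -0.037 as the median of its probes and -0.0052 to 0.060, that of IGF1R -0.035 with array weights, and that of IGF1 0.032 with median centring, 0.0084 without the 5 arrays and -0.048 to 0.0063. The sow difference of IGF2 was 0.089 with array weights and that of IGF2R -0.054 with the authors' values and -0.0080 with quantile normalization. The sire difference of IGF2R was 0.025 with the authors' values, 0.063 with array weights, 0.098 as the median of its probes and -0.066 to 0.0071. Median centring moved the median sow effect of all probes from 0.02 to 0.12 and the share of sow calls that were higher with MS sows from 45.5 to 74.2%, and that of sire calls from 44.8 to 31.6% (37.1% with quantile normalization). Leaving out each fetus, fetus 688 or the 5 arrays was chosen after seeing the data. Pure and crossbred litter mates were not paired, also not in the sire comparison, because the labels used do not give which sow carried each fetus.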

Other observations

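The lowest IGF2 levels are given here by fetus, with H19 and the mean levels of the smooth muscle and intestinal epithelium lists, as values only. At day 110 IGF2 was 3.71 in MS fetus 632 (H19 -6.19, smooth muscle 4.48), 4.33 in MS fetus 623 (H19 -6.09, smooth muscle 4.07) and 4.33 in LW fetus 575 (H19 -7.21, smooth muscle 4.56). It was 4.69 in LWMS fetus 609 (H19 -6.13, smooth muscle 4.21), 4.90 in MS fetus 627 (H19 -4.66, smooth muscle 4.39) and 5.18 in LW fetus 572 (H19 -6.85, smooth muscle 4.36). The epithelium list was at 0.34, 2.89, 1.52, 3.20, 2.89 and 2.43 in these fetuses, in the order given. Next at that age were LW fetus 850 at 5.39 (H19 -4.83, smooth muscle 3.68, epithelium 3.60) and LW fetus 469 at 5.42 (H19 -1.31, smooth muscle 3.46, epithelium 4.07). MSLW fetus 560 followed at 5.72 (H19 -2.52, smooth muscle 3.51, epithelium 4.18). The medians of the 31 fetuses of that age were 6.16 for IGF2, -2.13 for H19, 3.63 for smooth muscle and 3.96 for epithelium. In LW fetus 484 at day 90, IGF2 was 5.19, H19 -0.61, smooth muscle 3.60 and epithelium 2.60. The part of the muscle and epithelium lists in the IGF2 values was not tested.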
